A study of Mus musculus with 18 samples.

Results

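The 51 genes described here encode the ligands, receptors and Smad proteins of transforming growth factor beta (TGF-beta), activin and bone morphogenetic protein (BMP) signaling. They were chosen by symbol (Bmp, Gdf, Inhb, Tgfb, Tgfbr, Bmpr, Acvr and Smad genes, with Inha, Mstn and Nodal), with earlier results of these data known. They are 51 of the 45151 gene symbols present in all files. By role they are 30 ligands, 1 protease that carries a BMP name, 7 type I receptors, 4 type II receptors, 1 co-receptor and 8 Smads. RNA had been sequenced from male C57BL/6J mice aged 16 weeks that were kept on regular chow, with no transgene or drug named in the labels. The 3 groups were adipocytes of inguinal white adipose tissue (iWAT, n = 6), adipocytes of epididymal white adipose tissue (eWAT, n = 6), and brown adipose tissue (BAT, n = 6). The white adipocytes were the floating cells left after collagenase digestion of the fat pad, whereas BAT was sequenced as whole tissue, so that depot and preparation cannot be told apart in any comparison with BAT. The numbers in the sample titles were read as mouse numbers, which the labels do not state, with 4 numbers shared by iWAT and BAT, 4 by eWAT and BAT, and 5 by iWAT and eWAT.

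In this pathway, a dimeric ligand brings together type II and type I receptors, which are serine/threonine kinases. The type I receptor then phosphorylates receptor Smads (Smad2 and Smad3 for TGF-beta and activin ligands, Smad1, Smad5 and Smad9 for most BMPs), which enter the nucleus with the common partner Smad4, while Smad6 and Smad7 restrain the signal. In adipose tissue, BMPs are known to act on the commitment of progenitor cells to white or brown adipocytes, TGF-beta1 through Smad3 on fibrosis and browning, and activin B and GDF3 through the receptor Acvr1c on lipid storage.

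Values are RPKM, the reads of a row divided by its length and by the reads of the sample. The total of reads behind the RPKM was 22929576 to 32141048 per iWAT sample, 26607733 to 34048018 per eWAT sample and 26706786 to 34512470 per BAT sample. In the iWAT and BAT files, each gene is 1 row with its exons merged. In the eWAT files, each transcript is a row of its own, and the one with the most reads was used (a member had 1 to 16 of them). Only 14 of the 51 members had a row with identical coordinates, length and exons in the gene and transcript files, so eWAT levels and shares of summed RPKM mostly rest on other rows than those of iWAT and BAT. For Bmp5 and Bmpr2, the identical row was not the one used. The summed RPKM of 6 brown adipocyte markers was 2049 to 2642 in BAT, 23.6 to 32.5 in iWAT and 5.004 to 7.71 in eWAT. That of 6 adipocyte markers (Adipoq, Plin1, Cidec, Fabp4, Lep and Retn) was lower in BAT, at 5662 to 7033, than in iWAT, at 10990 to 16760, and eWAT, at 9355 to 17290. Fabp4 made up most of these sums, with a mean of 5473 RPKM in BAT, 10140 in iWAT and 9466 in eWAT. Lep and Retn were low in BAT (medians 10.38 and 6.531) beside iWAT (542.7 and 309.4), so the sum is no measure of adipocyte content. Some samples stood apart by genes of other cells. The eWAT sample of mouse 15 had 899 summed RPKM of 7 macrophage markers (64.01 to 180.3 in the other eWAT samples). The iWAT sample of mouse 14 had 321 of 7 endothelial markers (57.4 to 142 in the others), and the BAT sample of mouse 12 had 1379 of 6 skeletal muscle markers (0.55 to 123 in the others). Epididymis genes reached 76.5 and 68.6 summed RPKM in the eWAT samples of mice 14 and 15. Their part in the results was not tested, and results were repeated without the eWAT samples of mice 14 and 15 and the BAT sample of mouse 12.

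Depots were compared with edgeR's quasi-likelihood test on the read counts, and a gene was called when its Benjamini-Hochberg adjusted p, taken over all rows tested, was under 0.05. For comparisons with eWAT, the fit was repeated with the length of each row as an offset, and a call had to pass in both fits with the same sign. The value printed is then that of the count fit, and the adjusted p is the larger of both. Log2 fold changes are given ± SE. The fits centre each comparison on the bulk of genes (TMM), so that folds against BAT are smaller than the ratios of RPKM. With library totals alone, the median log2 fold change of all rows was 0.27 for iWAT over BAT and 0.36 for eWAT over BAT.

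In iWAT 26 members reached a mean RPKM of 1, in eWAT 27 and in BAT 18. All of these together were 27 members. Between iWAT and BAT, 27 of the 35 members with enough reads to be tested were called, against 67.6% of all rows. Of these, 19 were higher in iWAT (34% of all rows) and 8 higher in BAT (33.6% of all rows), and the median log2 fold change was 0.58 for the members and 0.01 for all rows. Between eWAT and BAT, 25 of 37 members tested were called (59.1% of all rows), 22 higher in eWAT (35.6% of all rows) and 3 higher in BAT (23.6% of all rows). The median was 0.69 for these members and 0.03 for all rows. Between iWAT and eWAT, 11 of 37 members were called (17.1% of all rows), 3 higher in iWAT (4.88% of all rows) and 8 higher in eWAT (12.2% of all rows). The balance of directions moved with the scaling. With library totals alone, the calls against BAT were 23 higher and 6 lower in iWAT and 24 higher and 1 lower in eWAT. The share of all called rows that were higher in white adipocytes then went from 50.3% to 65.8% and from 60.2% to 74.1%, respectively. The row used for eWAT mattered for size, and the length fit gave larger folds of eWAT over BAT for Tgfb1 (3.01 against 1.83 ± 0.31), Bmpr2 (3.09 against 1.71 ± 0.24), Smad1 (2.49 against 0.86 ± 0.16) and Bmp1 (2.19 against 1.18 ± 0.13). For eWAT against BAT that share was 50.8% with DESeq2 and 51.9% with the length offset recentred, with 21 and 22 members higher and 4 lower in each. Both comparisons with BAT used the same 6 BAT samples and are not independent of each other.

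**Figure D1:**
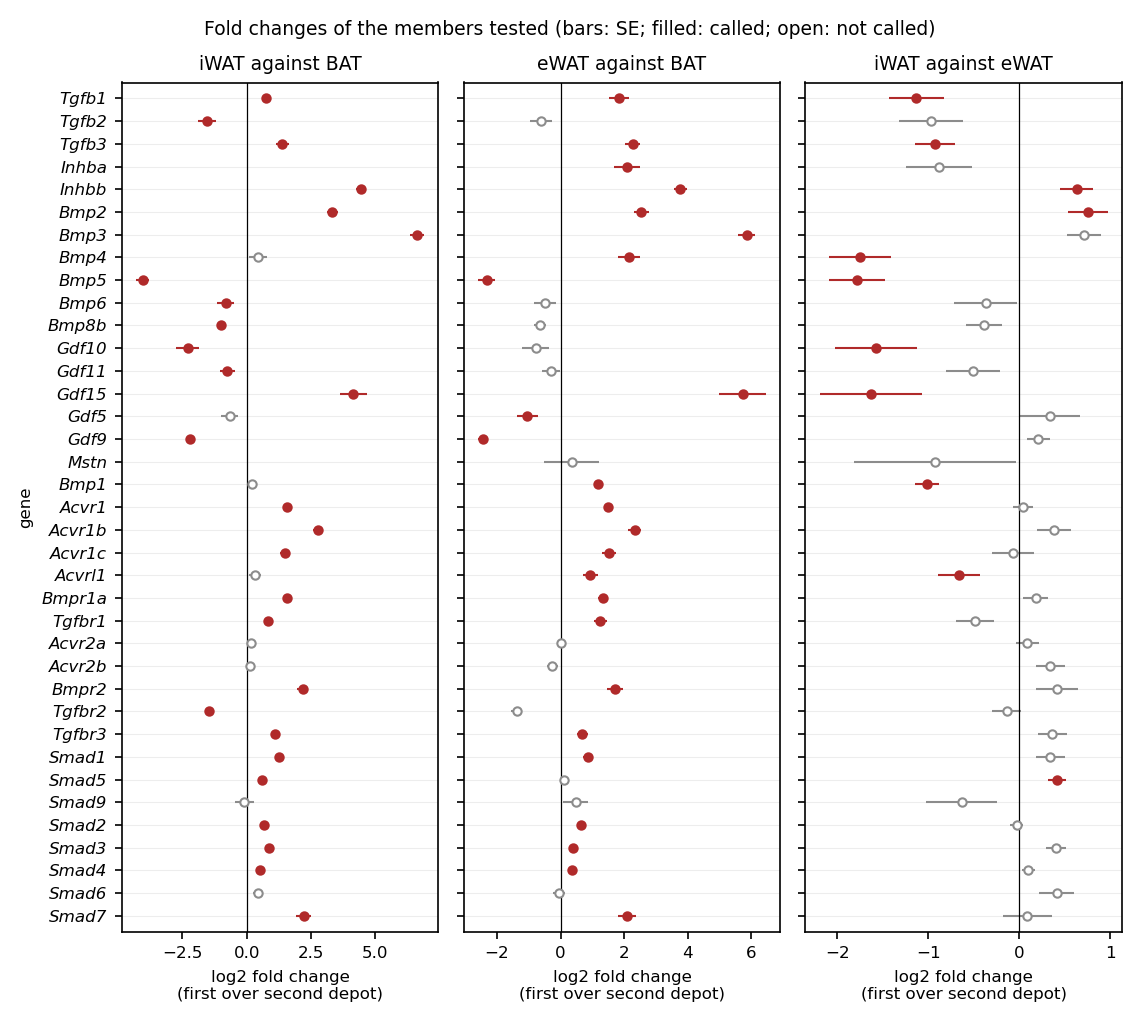
Log2 fold change (x axis, first over second depot) of the 37 members tested in at least 1 comparison (y axis, ordered by role), with SE as bars. Filled points were called and open points were not. Against BAT, most receptors and Smads lie right of 0, whereas the ligands lie on both sides, from Bmp5 (-4.04) to Bmp3 (6.62) in iWAT.

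Among the ligands, the BMP, activin and GDF genes Bmp3, Inhbb, Gdf15 and Bmp2 were the members with the highest fold over BAT in iWAT. Of 15 ligands tested between iWAT and BAT, 6 were higher in iWAT (34% of all rows) and 7 were higher in BAT (33.6% of all rows). Bmp3 (mm9, chr5:99283434-99309979), a BMP that antagonizes other BMPs in bone, had 10.6 to 21.02 RPKM (median 16.3) in iWAT, 8.33 to 16.7 (median 12.3) in eWAT and 0.0804 to 0.208 (median 0.1301) in BAT. In these bulk samples, fewer cells of a type and less RNA per cell cannot be told apart. No white adipocyte sample came near the BAT range, and the log2 fold change was 6.62 ± 0.27 (adjusted p = 9.71e-11) for iWAT over BAT and 5.85 ± 0.26 (adjusted p = 6.92e-13) for eWAT over BAT. Bmp3 made up a mean of 64.7% ± 10.1 (SD, n = 6) of the summed RPKM of the 11 BMP ligands in iWAT, 55.6% ± 6.47 in eWAT and 2.02% ± 0.878 in BAT. Bmp2 (chr2:133377895-133388621), an osteogenic and adipogenic BMP, had 2.4 to 5.21 RPKM (median 4.2) in iWAT, 1.79 to 3.75 (median 2.22) in eWAT and 0.261 to 0.399 (median 0.341) in BAT. Ranges of both white depots lay above BAT, with 3.33 ± 0.22 (adjusted p = 1.24e-08) for iWAT over BAT and 2.54 ± 0.24 (adjusted p = 2.25e-08) for eWAT over BAT. Bmp2 was also higher in iWAT than in eWAT by 0.75 ± 0.22 (adjusted p = 0.0155), although the ranges overlapped. This call was lost without the 3 samples named above (0.63, adjusted p = 0.091). A short row on the opposite strand inside Bmp2 moved with it between iWAT and BAT (log2 fold change 3.58 ± 0.40). Reads of the 2 strands cannot be told apart because the library kit of the study keeps no strand.

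Inhbb (chr1:121312042-121318825) encodes the beta B subunit of activin B. It had 17.9 to 29.9 RPKM (median 25.4) in iWAT, 9.58 to 19.8 (median 17.2) in eWAT and 0.715 to 1.55 (median 0.843) in BAT, again with no overlap between white adipocytes and BAT. The log2 fold change was 4.44 ± 0.19 (adjusted p = 1.78e-10) for iWAT over BAT and 3.76 ± 0.20 (adjusted p = 8.5e-12) for eWAT over BAT. This gene has the same row in all files. Between iWAT and eWAT it was 0.63 ± 0.18 (adjusted p = 0.0136), with overlapping ranges. With the mouse number as a block it was 0.63 with an adjusted p of 0.0579, and without the 3 samples it was 0.49 (adjusted p = 0.0634). The other activin and inhibin genes were low. Inhba, the beta A subunit, had 52 reads over the 6 iWAT samples, 115 over eWAT and 21 over BAT, and was called between eWAT and BAT (2.09 ± 0.41, adjusted p = 0.000163). It missed the read minimum between iWAT and BAT. Gdf3, the other ligand of Acvr1c named in fat, had 7 reads in iWAT, 58 in eWAT and 1 in BAT, too few to be tested.

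Gdf15 (chr8:73153292-73156355), a stress-induced hormone that acts on food intake through a hindbrain receptor, had 1.16 to 4.56 RPKM (median 3.19) in iWAT, 3.61 to 37.02 (median 5.98) in eWAT and 0.0157 to 0.324 (median 0.147) in BAT. Every white adipocyte sample lay above every BAT sample, with 4.14 ± 0.52 (adjusted p = 7.88e-06) for iWAT over BAT and 5.72 ± 0.73 (adjusted p = 1.45e-06) for eWAT over BAT. The highest value, 37.0 RPKM, came from the eWAT sample of mouse 15, the sample with the highest sum of macrophage markers, and the other eWAT samples had 3.61 to 13.9. Without that sample the log2 fold change of eWAT over BAT was 4.88 (adjusted p = 2.89e-07). The difference between iWAT and eWAT, -1.63 ± 0.56 (adjusted p = 0.0411), then fell to -0.78 (adjusted p = 0.207) and was no longer called. In all, the call was lost in 6 of 12 fits that left out 1 sample. The others were those without mouse 11, 12, 13 or 15 of iWAT or mouse 13 of eWAT (adjusted p 0.066 to 0.0831).

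The 3 TGF-beta genes, which encode the immunosuppressive and profibrotic cytokines, went different ways. Tgfb1 (chr7:26472021-26490096) had 2.96 to 5.38 RPKM (median 3.78) in iWAT, 11.1 to 45.3 (median 13.7) in eWAT and 1.33 to 2.54 (median 1.79) in BAT, so the 3 RPKM ranges followed each other without overlap. Its eWAT row has 2167 bases and the merged row of iWAT and BAT has 4910, so the gap in RPKM to eWAT depends on row length. Reads per sample overlapped between the white depots, at 367 to 839 in iWAT and 680 to 3217 in eWAT. The log2 fold change was 0.75 ± 0.16 (adjusted p = 0.00114) for iWAT over BAT, 1.83 ± 0.31 (adjusted p = 3.92e-05) for eWAT over BAT and -1.13 ± 0.30 (adjusted p = 0.0104) for iWAT over eWAT. The eWAT sample of mouse 15 again was the highest, at 45.3 RPKM against 11.1 to 18 in the other eWAT samples. Without it, the difference between iWAT and eWAT was -0.63 (adjusted p = 0.0124). With the mouse number as a block, that difference was -0.92 with an adjusted p of 0.0702. Tgfb3 (chr12:87397693-87419991) had 2.25 to 3.32 RPKM (median 3.12) in iWAT, 3.89 to 6.8 (median 6.08) in eWAT and 0.436 to 1.65 (median 0.985) in BAT. It was higher than in BAT in iWAT (1.39 ± 0.25, adjusted p = 0.000206) and eWAT (2.27 ± 0.23, adjusted p = 8.6e-08), and lower in iWAT than in eWAT (-0.93 ± 0.22, adjusted p = 0.00493). Tgfb2 did not exceed 0.468 RPKM in any sample and was higher in BAT than in iWAT (-1.54 ± 0.36, adjusted p = 0.00191).

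Bmp4 (chr14:47003195-47010344), a BMP that commits progenitors to the adipocyte lineage, was the BMP with the largest difference between the white depots after Bmp5. It had 0.192 to 0.848 RPKM (median 0.352) in iWAT, 1.04 to 2.47 (median 1.61) in eWAT and 0.109 to 0.391 (median 0.235) in BAT. Its eWAT range lay above both others, with 2.14 ± 0.35 (adjusted p = 2.32e-05) for eWAT over BAT and -1.75 ± 0.34 (adjusted p = 0.00103) for iWAT over eWAT. The iWAT and BAT ranges overlapped (0.44 ± 0.36, adjusted p = 0.292). The highest iWAT value, 0.848, came from mouse 14, the iWAT sample with the highest sum of endothelial markers. Bmp6 (chr13:38436995-38592183), known as a regulator of hepcidin, had 1.48 to 7.96 RPKM (median 2.47) in iWAT, 3.09 to 9.34 (median 4.19) in eWAT and 4.07 to 6.74 (median 5.11) in BAT, with overlapping ranges. Its call in favour of BAT, -0.82 ± 0.33 (adjusted p = 0.0425), was lost in 8 of 12 fits that left out 1 sample (adjusted p 0.0511 to 0.0919), namely without mouse 7, 11, 13 or 15 of iWAT or mouse 6, 7, 11 or 13 of BAT. Bmp1 (chr14:70874065-70920067) is not a BMP but a procollagen and chordin protease. It was higher in eWAT, at 4.07 to 6.46 RPKM (median 5.46), than in iWAT, at 1.22 to 1.47 RPKM (median 1.31), and BAT, at 0.634 to 1.28 RPKM (median 0.9495). Its log2 fold change was 1.18 ± 0.13 (adjusted p = 1.82e-07) for eWAT over BAT and -1.01 ± 0.13 (adjusted p = 1.91e-05) for iWAT over eWAT. The difference between iWAT and BAT, 0.22 ± 0.12 (adjusted p = 0.1199), was not called.

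**Figure D2:**
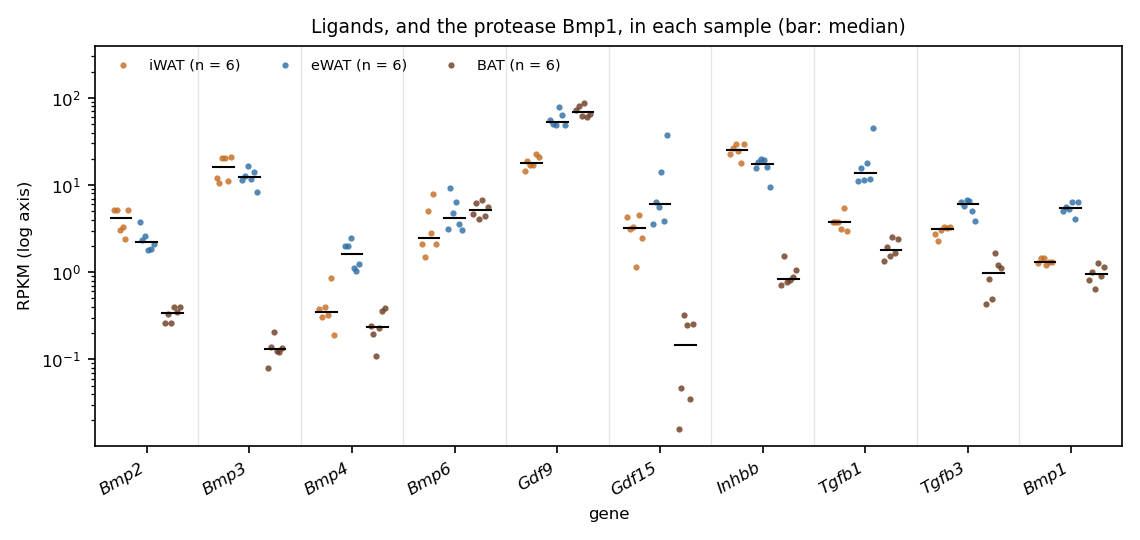
RPKM on a log axis (y) of the 9 ligands with a mean of at least 1 RPKM in some depot, and of the protease Bmp1 (x), with 1 point per sample and the median as a bar. Bmp2, Bmp3, Gdf15 and Inhbb show no overlap between white adipocytes and BAT. The Gdf9 values are those of a row that also covers a part of Uqcrq.

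The ligands that were higher in BAT than in iWAT were Bmp5, Bmp6, Bmp8b, Gdf9, Gdf10, Gdf11 and Tgfb2, and 5 of them had a mean RPKM under 1 in every depot (Bmp5, Bmp8b, Gdf10, Gdf11 and Tgfb2). Bmp5 (chr9:75623171-75748123), a BMP of cartilage and limb development, had 0.0192 to 0.0859 RPKM (median 0.0399) in iWAT, 0.0885 to 0.2601 (median 0.154) in eWAT and 0.576 to 0.777 (median 0.605) in BAT. Its 3 ranges did not overlap, and the log2 fold change was -4.04 ± 0.25 (adjusted p = 4.82e-09) for iWAT over BAT, -2.32 ± 0.26 (adjusted p = 3.39e-07) for eWAT over BAT and -1.78 ± 0.31 (adjusted p = 0.000426) for iWAT over eWAT. The non-coding gene Gm16662 on the opposite strand shares 1878 exon bases with Bmp5, and its row moved by -4.09 between iWAT and BAT. Reads of the 2 genes cannot be told apart. Gdf10, also known as BMP3B, had 107 reads over 6 iWAT samples, 373 over eWAT and 511 over BAT. It was lower in iWAT than in BAT (-2.30 ± 0.46, adjusted p = 0.000531) and than in eWAT (-1.57 ± 0.45, adjusted p = 0.0151), with overlapping ranges in both. Gdf11, a relative of myostatin, was lower in iWAT than in BAT (-0.75 ± 0.29, adjusted p = 0.0349). This call was lost in 7 of 12 fits that left out 1 sample, namely without mouse 7, 11, 12, 13 or 15 of iWAT or mouse 7 or 13 of BAT. Gdf5, a BMP-like factor of joints, was called only as lower in eWAT than in BAT (-1.04 ± 0.33, adjusted p = 0.00837). Its ranges overlapped, and it shares 936 exon bases with Gm15557 on the opposite strand.

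The apparent level of Gdf9 needs care. Gdf9, an oocyte growth factor, had 14.4 to 22.6 RPKM (median 18.1) in iWAT, 48.5 to 79.2 (median 52.7) in eWAT and 59.7 to 86.5 (median 68.2) in BAT, the highest RPKM of all members in eWAT and BAT. In the eWAT files, where transcripts are listed separately, 1105 to 1879 reads per sample lay on AK078302, a single-exon transcript of 786 bases (chr11:53244074-53244859). The RefSeq transcript of Gdf9, NM_008110 (chr11:53246788-53251405), had only 11 to 23. AK078302 overlaps the first exon of Uqcrq (chr11:53241424-53244333, opposite strand) by 260 bases. Uqcrq, which encodes a subunit of mitochondrial complex III, had 27.1 to 42.5 RPKM (median 34.5) in iWAT, 130.1 to 217 (median 144) in eWAT and 120.4 to 176 (median 136) in BAT. Its log2 fold change was -2.29 ± 0.12 (adjusted p = 1.09e-09) for iWAT over BAT, beside -2.19 ± 0.12 (adjusted p = 1.52e-09) for the Gdf9 row. The merged rows of iWAT and BAT cannot be split in this way, so the values of Gdf9 describe the row and not the Gdf9 messenger. A similar limit holds for Bmp8b, a BMP known from brown fat. Its row was lower in iWAT than in BAT (-0.99 ± 0.16, adjusted p = 7.5e-05). In eWAT, however, 18 to 32 reads per sample lay on transcripts that run into Ppie on the opposite strand, and 0 to 2 on the RefSeq transcript. Bmp8a, its near-identical paralog, had 4, 2 and 0 reads over the iWAT, eWAT and BAT samples.

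The remaining ligands were at the edge of detection. In all, 14 of the 51 members could not be tested in any comparison, with at most 85 reads over the 6 samples of a depot (Bmpr1b in eWAT). They were Bmp7, Bmp8a, Bmp10, Bmp15, Gdf1, Gdf2, Gdf3, Gdf6, Gdf7, Inha, Inhbc, Inhbe and Nodal, with the type I receptor Bmpr1b. Bmp10 and Inhbe had no read in any of 18 samples, and 3 reads would correspond to 0.066 to 0.0993 RPKM for Bmp10 and 0.0407 to 0.0613 for Inhbe, counting error only. Bmp7, a BMP that drives brown adipocyte formation, had 17 reads over the iWAT samples, 40 over eWAT and 35 over BAT. Mstn, the muscle growth inhibitor myostatin, reached 0.6904 RPKM in the BAT sample of mouse 12, the one with the high sum of skeletal muscle markers, which held 58 of the 69 BAT reads. It was not called in the comparisons where it was tested.

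Of 11 receptor genes tested, the co-receptor included, 8 were called between iWAT and BAT, a share near the 67.6% of all rows. Of these 7 were higher and 1 was lower in iWAT (34% and 33.6% of all rows). Between eWAT and BAT 8 were called (59.1% of all rows), all higher in eWAT (35.6% of all rows). Between iWAT and eWAT 1 was called (17.1% of all rows). The type I receptor with the highest RPKM in each depot was Acvr1c (chr2:58119864-58210306), known as ALK7, the receptor for activin B and GDF3. It had 18.7 to 36.9 RPKM (median 26.02) in iWAT, 13.9 to 40.1 (median 29.5) in eWAT and 5.38 to 9.67 (median 7.54) in BAT. White adipocytes and BAT did not overlap, with 1.50 ± 0.20 (adjusted p = 1.09e-05) for iWAT over BAT and 1.52 ± 0.23 (adjusted p = 1.11e-05) for eWAT over BAT. The difference between iWAT and eWAT was smaller than its error (-0.07 ± 0.23, adjusted p = 0.847). Acvr1, Acvr1b, Bmpr1a and Tgfbr1 were also lower in BAT than in both white depots, and Acvr1c made up similar shares of the summed RPKM of the 7 genes in iWAT and BAT. The mean share was 39.4% ± 6.81 (SD, n = 6) for iWAT, 34.8% ± 9.01 for eWAT and 39.5% ± 6.25 for BAT. The eWAT share is not comparable with the others, since its rows differ in length (for example 3298 bases against 5181 for Acvr1).

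Bmpr1a (chr14:35223920-35316527), the main type I receptor for BMP2 and BMP4, was the next highest by median in each depot. It had 12.7 to 20.1 RPKM (median 16.7) in iWAT, 12.9 to 23.5 (median 19.1) in eWAT and 3.86 to 5.62 (median 4.303) in BAT. It was higher than in BAT by 1.57 ± 0.14 (adjusted p = 3.31e-07) in iWAT and 1.34 ± 0.15 (adjusted p = 1.88e-07) in eWAT, with no overlap. Acvr1b (chr15:101004535-101044109), the activin receptor ALK4, showed the largest fold of all receptors over BAT in iWAT and in the count fit of eWAT, with 7.05 to 16.9 RPKM (median 10.1) in iWAT, 6.003 to 12.8 (median 8.46) in eWAT and 1.18 to 1.47 (median 1.39) in BAT. Its log2 fold change was 2.76 ± 0.19 (adjusted p = 1.8e-08) for iWAT and 2.33 ± 0.20 (adjusted p = 7.69e-09) for eWAT, and its row is the same in both kinds of file. In the length fit of eWAT, the fold of Bmpr2 was larger, at 3.09 against 2.33. Acvr1, also called ALK2, had 3.42 to 5.42 RPKM (median 4.07) in iWAT, 5.096 to 8.13 (median 6.53) in eWAT and 0.962 to 1.49 (median 1.18) in BAT. Its fold over BAT was 1.58 ± 0.11 (adjusted p = 1.74e-08) in iWAT and 1.48 ± 0.11 (adjusted p = 1.16e-09) in eWAT. The TGF-beta type I receptor Tgfbr1 (chr4:47366094-47427803) had 3.14 to 6.06 RPKM (median 4.86) in iWAT, 6.41 to 17.1 (median 8.25) in eWAT and 1.96 to 2.52 (median 2.198) in BAT. Its fold over BAT was 0.81 ± 0.13 (adjusted p = 0.000106) in iWAT and 1.25 ± 0.21 (adjusted p = 3.64e-05) in eWAT. As for Tgfb1, its highest eWAT value, 17.1, was that of mouse 15, and the others were 6.41 to 9.09. Acvrl1, the endothelial receptor ALK1, had 2.68 to 5.95 RPKM (median 3.05) in iWAT, 6.19 to 12.03 (median 9.21) in eWAT and 1.63 to 4.57 (median 2.18) in BAT. It was higher in eWAT than in BAT (0.94 ± 0.23, adjusted p = 0.00152) and in iWAT (-0.66 ± 0.23, adjusted p = 0.0448), the latter given as iWAT over eWAT. This second call was lost with the mouse number as a block (adjusted p = 0.111). It was also lost in 8 of 12 fits that left out 1 sample, namely mouse 7, 11, 13 or 15 of iWAT or mouse 8, 11, 13 or 15 of eWAT. The summed RPKM of 7 endothelial markers was 149.6 to 339 in eWAT, 57.4 to 321 in iWAT and 53.1 to 131 in BAT, and all 7 were detected in each depot. The eWAT sums rest on transcript rows and the others on merged rows. By the rule for calls, 1 of the 7 was called between eWAT and BAT (59.1% of all rows). Between iWAT and eWAT 0 were called (17.1% of all rows). The part of endothelial cells in this result was not tested.

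The type II receptors did not move together. Bmpr2 (chr1:59820244-59928822), which pairs with most BMP type I receptors, had 2.04 to 5.34 RPKM (median 4.904) in iWAT, 5.03 to 12.2 (median 8.31) in eWAT and 0.505 to 0.941 (median 0.823) in BAT. It was higher than in BAT by 2.17 ± 0.23 (adjusted p = 1.56e-06) in iWAT and 1.71 ± 0.24 (adjusted p = 3.48e-06) in eWAT. A single-exon row further downstream under the same symbol (chr1:59933715-59935858) was in contrast lower in iWAT, with -0.41 ± 0.10 (adjusted p = 0.00294). The sign of the Bmpr2 result depends on which row is used. Tgfbr2 (chr9:115993415-116084564), the type II receptor for TGF-beta, was the only receptor lower in iWAT than in BAT. It had 3.87 to 5.68 RPKM (median 4.36) in iWAT, 9.396 to 16.99 (median 12.4) in eWAT and 8.35 to 13.6 (median 10.4) in BAT, with -1.48 ± 0.15 (adjusted p = 8.57e-07) for iWAT over BAT and no overlap of these ranges. For eWAT, the count fit gave -1.38 ± 0.17 against BAT and the length fit gave -0.10, so no direction can be given. Between iWAT and eWAT the 2 fits gave -0.14 ± 0.16 and -1.42, which was not a call either. Tgfbr2 made up 75.5% ± 5.02 (SD, n = 6) of the summed RPKM of the 4 type II receptors in BAT and 38.1% ± 5.88 in iWAT, without overlap and with the upstream row of Bmpr2. No eWAT share is given, since its rows differ in length. Acvr2a, a type II receptor for activins and BMPs, had 2.15 to 3.41 RPKM (median 3.02) in iWAT, 2.86 to 5.22 (median 3.55) in eWAT and 1.83 to 2.55 (median 2.197) in BAT. It was not called in any comparison, nor was Acvr2b, which did not exceed 0.638 RPKM in any sample. The co-receptor Tgfbr3 (chr5:107535589-107718648), or betaglycan, which presents TGF-beta2 and inhibin to their receptors, had 10.4 to 16.5 RPKM (median 11.8) in iWAT, 9.35 to 23.1 (median 15.8) in eWAT and 4.08 to 5.16 (median 4.804) in BAT. It was higher than in BAT in iWAT (1.10 ± 0.11, adjusted p = 1.04e-06) and eWAT (0.69 ± 0.16, adjusted p = 0.000656).

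**Figure D3:**
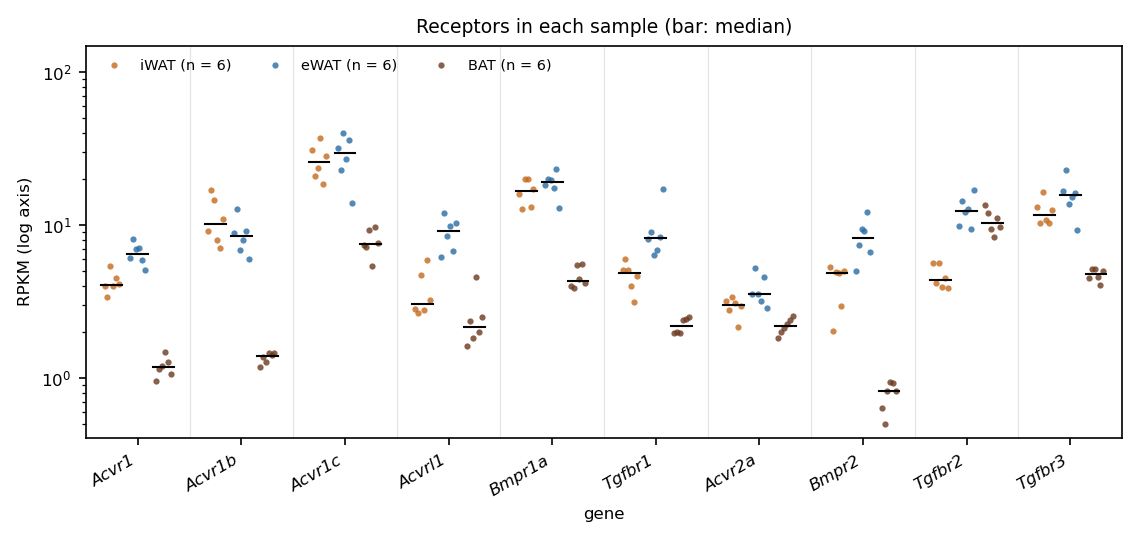
RPKM on a log axis (y) of the 10 receptor genes with a mean of at least 1 RPKM in some depot (x), with 1 point per sample and the median as a bar. Acvr1c had the highest RPKM among type I receptors in each depot (iWAT median 26.02, eWAT median 29.5, BAT median 7.54), and the Tgfbr2 ranges of iWAT and BAT do not overlap.

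Regulatory sequence is shown for examples from both directions of these differences, although some other members had larger folds than Tgfbr1 and Tgfb2. The 250 bases before the RefSeq start are given for 3 members that were higher in iWAT than in BAT (Inhbb, Gdf15 and Tgfbr1). They are also given for 2 that were higher in BAT (Bmp5 and Tgfb2). They are from the RefSeq promoter table (build GRCm38.p6), 5′ to 3′ on the strand of the gene. Each RefSeq start lies within 3 bases of the start of the merged mm9 row. The eWAT row of Gdf15 starts further inside the gene, at chr8:73155994 of mm9. Gdf15 and Tgfbr1 each have a further RefSeq promoter, which is not shown. Capitals mark GGCGCC, known as a binding motif of Smad1 and Smad5, CAGACA or its reverse complement TGTCTG, a Smad box with 1 more base, and TATAAA, the TATA box.
Inhbb (chr1:119422249-119422498, minus strand): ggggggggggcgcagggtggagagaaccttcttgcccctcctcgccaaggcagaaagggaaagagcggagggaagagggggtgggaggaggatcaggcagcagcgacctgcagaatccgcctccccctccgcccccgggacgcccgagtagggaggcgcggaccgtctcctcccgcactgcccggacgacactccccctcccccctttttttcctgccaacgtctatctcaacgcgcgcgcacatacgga
Gdf15 (chr8:70632457-70632706, minus strand): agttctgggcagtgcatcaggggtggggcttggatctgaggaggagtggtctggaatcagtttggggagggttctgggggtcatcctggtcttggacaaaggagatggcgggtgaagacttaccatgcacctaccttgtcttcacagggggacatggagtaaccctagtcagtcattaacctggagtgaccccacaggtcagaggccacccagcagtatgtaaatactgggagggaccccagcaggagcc
Tgfbr1 (chr4:47352972-47353221, plus strand): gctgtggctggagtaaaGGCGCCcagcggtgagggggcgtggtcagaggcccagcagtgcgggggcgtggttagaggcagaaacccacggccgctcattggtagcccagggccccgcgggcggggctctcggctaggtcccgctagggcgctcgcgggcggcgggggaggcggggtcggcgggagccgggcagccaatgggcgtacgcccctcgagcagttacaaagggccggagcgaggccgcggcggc
Bmp5 (chr9:75775115-75775364, plus strand): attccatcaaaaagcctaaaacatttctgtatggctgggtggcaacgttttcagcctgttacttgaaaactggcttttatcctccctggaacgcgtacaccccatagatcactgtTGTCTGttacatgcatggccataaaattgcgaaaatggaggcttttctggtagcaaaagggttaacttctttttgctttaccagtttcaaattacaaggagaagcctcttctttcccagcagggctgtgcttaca
Tgfb2 (chr1:186705990-186706239, minus strand): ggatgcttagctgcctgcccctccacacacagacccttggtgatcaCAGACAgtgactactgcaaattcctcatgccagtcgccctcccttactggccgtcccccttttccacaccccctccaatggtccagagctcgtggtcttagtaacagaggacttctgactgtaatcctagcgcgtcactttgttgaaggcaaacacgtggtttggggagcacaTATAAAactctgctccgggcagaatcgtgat
The Inhbb and Tgfbr1 windows were rich in G and C (68% and 74.8%, with 21 and 29 CpG dinucleotides), compared with a median of 52.4% and 6 CpG over all promoters, whereas the Bmp5 window had 42.8% and 4 CpG, and the Gdf15 window had 56.4% and 1 CpG. Tgfbr1 held 1 GGCGCC, Bmp5 1 TGTCTG, and Tgfb2 1 CAGACA and 1 TATAAA, while none of the 3 motifs occurred in the Inhbb and Gdf15 windows. The table held 45 promoters of 37 of the 51 members. Searched on both strands, GGCGCC was found in 13.3% of these and 9.59% of all 32851 promoters, CAGACA in 15.6% and 17.1%, and TATAAA in 15.6% and 12.4%. A match of letters is a description and not a binding site.

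Of the 8 Smads, 6 were higher in iWAT than in BAT (34% of all rows) and 5 higher in eWAT than in BAT (35.6% of all rows). None was lower in either (33.6% and 23.6% of all rows), and 1 was called between iWAT and eWAT (17.1% of all rows). Smad2 and Smad3, the receptor Smads of TGF-beta and activin, were expressed in all samples. Smad2 had 7.94 to 9.31 RPKM (median 8.56) in iWAT, 9.96 to 11.7 (median 11.4) in eWAT and 4.22 to 4.94 (median 4.496) in BAT. Smad3 had 2.55 to 4.02 RPKM (median 3.58) in iWAT, 3.77 to 5.49 (median 4.84) in eWAT and 1.42 to 2.04 (median 1.55) in BAT. Over BAT, Smad2 differed by 0.66 ± 0.07 (adjusted p = 7.43e-07) in iWAT and 0.64 ± 0.07 (adjusted p = 9.94e-08) in eWAT. Smad3 differed by 0.85 ± 0.11 (adjusted p = 8.8e-06) in iWAT and 0.39 ± 0.11 (adjusted p = 0.002903) in eWAT. The common partner Smad4 had 9.803 to 12.1 RPKM (median 11.3) in iWAT, 11.5 to 12.7 (median 12.2) in eWAT and 5.69 to 7.79 (median 6.07) in BAT. It differed by 0.51 ± 0.08 (adjusted p = 9.74e-05) in iWAT and 0.36 ± 0.07 (adjusted p = 0.000222) in eWAT. The ranges of these 3 genes in white adipocytes lay above BAT throughout, although the folds were small. With the eWAT transcript of the highest RPKM in place of the one with the most reads, the count fit of eWAT over BAT turned to -0.39 for Smad2 and -0.78 for Smad4 and was no longer a call. Those transcripts have 752 bases for Smad2 and 1029 for Smad4, against 2857 and 3341 for the rows used.

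Of the Smads that carry BMP signals, Smad1 had 2.07 to 3.08 RPKM (median 2.63) in iWAT, 5.54 to 9.199 (median 5.95) in eWAT and 0.555 to 1.48 (median 0.881) in BAT. Its fold over BAT was 1.25 ± 0.16 (adjusted p = 1.17e-05) in iWAT and 0.86 ± 0.16 (adjusted p = 0.000139) in eWAT, where the length fit gave 2.49. The highest eWAT value, 9.20, was from mouse 8, the eWAT sample with the highest sum of endothelial markers. Smad5 had 8.82 to 10.8 RPKM (median 10.01) in iWAT, 5.39 to 9.64 (median 8.28) in eWAT and 5.19 to 6.03 (median 5.46) in BAT. It was higher in iWAT than in BAT (0.58 ± 0.07, adjusted p = 4.5e-06) and than in eWAT (0.41 ± 0.10, adjusted p = 0.0107), the only Smad called between the white depots. Smad9 did not exceed 0.361 RPKM and was not called. Smad1, Smad5 and Smad9 together made up 50.98% ± 0.998 (SD, n = 6) of the summed RPKM of the 5 receptor Smads in iWAT, 47.9% ± 3.83 in eWAT and 51.4% ± 1.86 in BAT.

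Inhibitory Smads differed from each other. Smad7, which blocks TGF-beta and BMP receptors and is itself a target of the pathway, had 4.97 to 15.4 RPKM (median 6.65) in iWAT, 5.07 to 11.4 (median 7.88) in eWAT and 1.08 to 2.73 (median 1.27) in BAT. White adipocytes and BAT did not overlap, at 2.21 ± 0.29 (adjusted p = 1.08e-05) for iWAT and 2.08 ± 0.29 (adjusted p = 3.37e-06) for eWAT over BAT. The highest BAT value, 2.73, was that of mouse 11, the BAT sample with the highest sum of endothelial markers, and the other BAT samples had 1.08 to 1.545. Smad6, which acts mainly on BMP receptors, had 4.74 to 10.8 RPKM (median 6.42) in iWAT, 3.76 to 7.17 (median 5.49) in eWAT and 2.67 to 5.28 (median 4.36) in BAT. Between iWAT and BAT it was not called (0.42 ± 0.19, adjusted p = 0.0607). It passed with library totals alone (0.70, adjusted p = 0.0076), without mouse 11 of iWAT (0.51, adjusted p = 0.0314) and without mouse 14 of iWAT (0.52, adjusted p = 0.0236). It also passed with a minimum of 1 read (0.49) and in the limma fits of log2 RPKM (0.56 and 0.66). In eWAT the 2 fits of Smad6 against BAT differed in sign (-0.04 ± 0.19 and 0.08). Smad7 made up 54.02% ± 7.78 (SD, n = 6) of the summed RPKM of both genes in iWAT, 58.6% ± 7.97 in eWAT and 26.5% ± 8.71 in BAT.

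**Figure D4:**
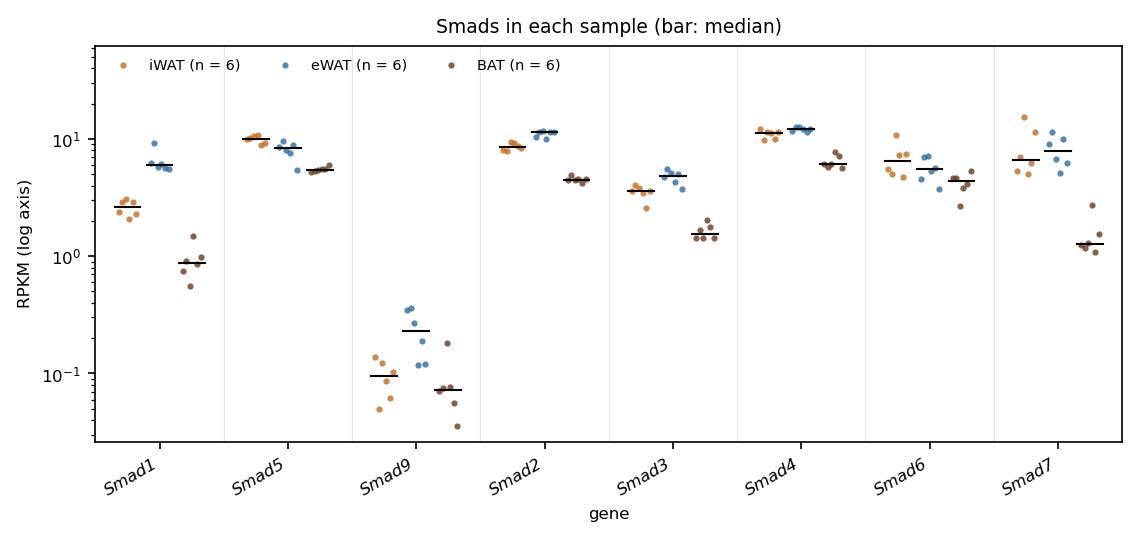
RPKM on a log axis (y) of the 8 Smads (x), with 1 point per sample and the median as a bar. Smad2, Smad3, Smad4 and Smad7 show white adipocytes above BAT without overlap, and Smad6 overlaps among the 3 depots.

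Between the white depots, 26 of the 37 members tested were not called, and the files count genes in iWAT and transcripts in eWAT. The members called were Bmp2, Inhbb and Smad5 (higher in iWAT) and Bmp1, Bmp4, Bmp5, Gdf10, Gdf15, Tgfb1, Tgfb3 and Acvrl1 (higher in eWAT). With counts per length alone 24 members passed, 3 higher in iWAT and 21 higher in eWAT. Of all called rows 10.7% were then higher in iWAT, compared with 28.5% for the rule used, 49.2% with DESeq2, 52.2% with counts alone and 45.1% with the length offset recentred. With the mouse number as a block, 7 members were called, and Acvrl1, Gdf15, Inhbb and Tgfb1 were lost. Without the 3 samples named above 7 were called, and Acvrl1, Bmp2, Gdf15 and Inhbb were lost. The summed RPKM of the 7 macrophage markers was 64.01 to 899 in eWAT and 14.4 to 111 in iWAT. The part of macrophages in the difference of Tgfb1, Tgfb3, Gdf15 and Bmp1 was not tested.

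Of 24 genes for extracellular antagonists and co-receptors, which bind the ligands, 14 were tested between iWAT and BAT. Of these 7 were higher and 5 lower in iWAT, against 34% and 33.6% of all rows. Of 18 tested in the comparisons with eWAT, 11 were higher and 4 lower in eWAT than in BAT (35.6% and 23.6% of all rows). In iWAT 1 was higher and 5 were lower than in eWAT (4.88% and 12.2% of all rows). Without the 3 samples, 9 were higher and 2 lower in eWAT than in BAT, and 0 were higher and 3 lower in iWAT than in eWAT. Chrdl1, a BMP antagonist of the chordin family, had 8.34 to 22.6 RPKM (median 15.03) in iWAT, 16.4 to 50.3 (median 30.2) in eWAT and 0.282 to 0.444 (median 0.352) in BAT. Its fold over BAT was 5.17 ± 0.23 (adjusted p = 2.68e-10) in iWAT and 5.47 ± 0.29 (adjusted p = 7.07e-12) in eWAT. Chrd, chordin itself, had 1.34 to 2.1 RPKM (median 1.75) in iWAT, 1.04 to 2.27 (median 1.82) in eWAT and 0.0577 to 0.165 (median 0.104) in BAT, at 3.75 ± 0.19 (adjusted p = 6.98e-10) for iWAT over BAT. Fstl3, a follistatin-like binder of activins and myostatin, had 1.96 to 3.71 RPKM (median 3.298) in iWAT, 6.17 to 10.4 (median 8.399) in eWAT and 0.122 to 0.402 (median 0.182) in BAT. It was lower in iWAT than in eWAT (-1.07 ± 0.19, adjusted p = 0.000441). These 3 genes were named for the size of their fold between iWAT and BAT, so their distance from BAT in iWAT follows from that choice.

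Of 13 genes for latency and matrix proteins, 11 were tested. In iWAT 5 were higher and 4 lower than in BAT (34% and 33.6% of all rows), and in eWAT 5 were higher and 1 lower than in BAT (35.6% and 23.6%). In iWAT 1 was higher and 4 were lower than in eWAT (4.88% and 12.2%). Thbs1, thrombospondin 1, which can release TGF-beta from its latent complex, had 46.7 to 152 RPKM (median 72.7) in iWAT, 116 to 294 (median 202) in eWAT and 0.456 to 5.05 (median 1.16) in BAT. It differed by 5.24 ± 0.59 (adjusted p = 2.54e-06) between iWAT and BAT. Ltbp2, a microfibril protein of the latent TGF-beta binding family, was higher in BAT. It had 1.33 to 2.25 RPKM (median 1.89) in iWAT, 1.22 to 1.69 (median 1.43) in eWAT and 8.91 to 12.4 (median 9.62) in BAT, a difference of -2.73 ± 0.14 (adjusted p = 6.63e-10) for iWAT over BAT. Decorin (Dcn), a proteoglycan that binds TGF-beta, had 1.63 to 6.36 RPKM (median 3.47) in iWAT, 25.4 to 57.4 (median 47.7) in eWAT and 10.9 to 14.5 (median 13.4) in BAT. It was lower in iWAT than in BAT (-2.02 ± 0.24, adjusted p = 3.67e-06) and eWAT (-1.73 ± 0.25, adjusted p = 7.47e-05). For eWAT against BAT, the count fit gave -0.34 ± 0.24 and the length fit gave 1.43, so no direction can be given.

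All 16 intracellular regulators were tested, and 9 were higher and 1 lower in iWAT than in BAT (34% and 33.6% of all rows). In eWAT 8 were higher and 1 lower than in BAT (35.6% and 23.6%). In iWAT 1 was higher and 3 were lower than in eWAT (4.88% and 12.2%). The 10 called between iWAT and BAT and the 9 between eWAT and BAT were shares near those of all rows (67.6% and 59.1%). Tgif2, a transcriptional repressor that binds Smads, was the one that was lower in iWAT (-1.31 ± 0.21, adjusted p = 7.98e-05), with 0.256 to 0.569 RPKM (median 0.314) in iWAT, 0.246 to 0.585 (median 0.441) in eWAT and 0.577 to 0.885 (median 0.791) in BAT. Among those with a mean of at least 1 RPKM, the largest differences between iWAT and BAT were smaller. Tob1, an antiproliferative protein that binds Smads, differed by 0.88 ± 0.21 (adjusted p = 0.00169), the ubiquitin ligase Smurf1 by 0.81 ± 0.08 (adjusted p = 5.51e-07), and Skil, a Smad co-repressor, by 0.80 ± 0.20 (adjusted p = 0.002404). Of 17 genes often used as SMAD targets, 15 were tested, and 8 were higher and 2 lower in iWAT than in BAT (34% and 33.6% of all rows). Together this was again a share near the 67.6% of all rows. In eWAT 10 were higher and none lower than in BAT (35.6% and 23.6% of all rows, 59.1% in all). Between iWAT and eWAT 2 were higher in eWAT (12.2% of all rows). The last count was 0 with the mouse number as a block. Junb, an AP-1 subunit that many stimuli induce, had 345 to 493 RPKM (median 411) in iWAT, 263 to 374 (median 303) in eWAT and 4.95 to 9.56 (median 5.26) in BAT. Its log2 fold change was 5.71 ± 0.24 (adjusted p = 1.22e-10) for iWAT over BAT, and no white adipocyte sample overlapped with BAT. Cdkn2b, a cell cycle inhibitor induced by TGF-beta, differed by 3.39 ± 0.23 (adjusted p = 1.3e-08). White adipocytes had gone through collagenase digestion and BAT had not, and the part of this step in these values cannot be told apart from the depot.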

How the data were processed

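RNA-seq was analysed in 6 iWAT, 6 eWAT and 6 BAT samples, grouped by the depot in their labels. According to the study's methods, RNA with a high integrity number was made into libraries with the NEBNext Ultra RNA kit, sequenced on a HiSeq instrument and analysed with the Genomatix Genome Analyzer on mm9. The submitters' processing notes name cutadapt 1.16 and HISAT2 2.1.0. The annotation and the counting rule are not given in the sources used here. The authors deposited, per sample and row, a raw read count and an RPKM. In 100% of rows the RPKM equals, within 1%, the count over the row's length and a read total that is constant in a sample. Molecular identifiers are not named in the sources used here, and floors cover counting error only.

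The members are rows whose symbol follows the naming pattern in the text. The members and the gene lists were chosen with earlier results of these data known. The iWAT and BAT values are from the merged row (the one with the most reads for Bmp2, Bmp5 and Bmpr2), and the eWAT values from the transcript with the most reads. Members reaching a mean RPKM of 1 in some depot are given with lowest, median and highest value, and lower ones by reads. Of the pathway lists, the 3 called genes with the largest log2 fold change between iWAT and BAT and that minimum are named, and other genes with values were named after their values were seen. A gene that this rule names is not reported here.

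Counts were fitted with edgeR 4.0.16 (glmQLFit, glmQLFTest) in R 4.3.3, with TMM, library sizes equal to the totals behind the RPKM, a minimum of 10 reads in 6 samples and Benjamini-Hochberg adjustment over all rows. iWAT and BAT were fitted on 12 samples and 19733 rows, and comparisons with eWAT on 18 samples and 18383 symbols. The code was tested on simulated counts. Standard errors come from the F statistic. Alternatives were DESeq2 1.42.0, limma 3.58.1 on log2(RPKM + 0.1) and log2(RPKM + 1), other filters, scalings and rows, the mouse number as a replicate block, and leaving out each sample. The recentred length offset and the fit without 3 samples were chosen after seeing the data.

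Numbers in the titles were taken as mouse numbers, which gives the pairing. Same-numbered samples did not deviate together across genes, with a mean correlation of 0.0336 for iWAT with BAT, -0.0354 for eWAT with BAT and -0.101 for iWAT with eWAT. For different numbers these were -0.0038, 0.00575 and 0.0222. Positions are on mm9, where GENCODE vM1 placed all 51 members at the position and strand of the file rows. Overlapping genes were taken from it. Promoter sequences are from RefSeq (GRCm38.p6). Protein sequences were not used here.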

Additional observations from a re-analysis of the deposited data

Results flagged for a closer look

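The RPKM of each member with a mean of at least 1 was examined in each depot for a sample far from the other 5 by Dixon's ratio. Of 81 such measures, 8 had one, where chance alone gives about 1 in 20, or 4.05. In the eWAT sample of mouse 15, Tgfb1 was 45.3 RPKM (11.1 to 18 in the others), Gdf15 was 37.0 (3.61 to 13.9) and Tgfbr1 was 17.1 (6.41 to 9.09), and this sample had 899 summed RPKM of 7 macrophage markers against 64.01 to 180.3 in the others. In the iWAT sample of mouse 14, Bmp4 was 0.848 RPKM (0.192 to 0.399 in the others) and Tgfb1 was 5.38 (2.96 to 3.79), beside 321 summed RPKM of 7 endothelial markers against 57.4 to 142. In the BAT sample of mouse 11, Acvrl1 was 4.57 RPKM (1.63 to 2.53 in the others) and Smad7 was 2.73 (1.08 to 1.545), beside 131 summed RPKM of the endothelial markers against 53.1 to 105. In the eWAT sample of mouse 8, Smad1 was 9.199 RPKM (5.54 to 6.28 in the others), beside 339 summed RPKM of the endothelial markers against 149.6 to 287. These samples also stood apart by other marker sums. The eWAT sample of mouse 15 had the lowest adipocyte sum of its depot (9355) and 68.6 of epididymis markers. The BAT sample of mouse 11 had the highest macrophage sum of its depot (30.6). The iWAT sample of mouse 14 and the eWAT sample of mouse 8 had the highest smooth muscle or pericyte sums of their depots (110.8 and 192.8). Whether any of these cells account for the values was not tested.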

How the results depend on the processing

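The number of members called moved by over 1.5 times under few alternatives. With only rows shared by both kinds of file, which left 7 members to test, 4 were called for iWAT against BAT, 4 for eWAT against BAT and 3 for iWAT against eWAT. The shared rows of Bmp5 and Bmpr2 are not those used in the report. That of Bmp5 lies on the opposite strand, at the position of Gm16662, and that of Bmpr2 is the downstream single-exon row. Between iWAT and eWAT, where 11 were called, the count was 24 with limma on log2(RPKM + 0.1), 24 with limma on log2(RPKM + 1), 24 with row length as an offset alone, 17 with the longest eWAT transcript, 7 with the mouse number as a replicate block and 7 without the 3 samples named in the report. Leaving out 1 sample at a time gave 25 to 29 calls for iWAT against BAT, 25 to 26 for eWAT against BAT and 9 to 14 for iWAT against eWAT. The members reaching a mean RPKM of 1 were 26 in iWAT, 27 in eWAT and 18 to 21 in BAT. The replicate block changed no call in the comparisons with BAT.

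Some fold changes turned their sign, mostly where the row used for eWAT or its length was changed. With limma at a pseudocount of 0.1, limma at 1 and row length as an offset alone, in this order, iWAT over eWAT was -0.61, -0.52 and -0.61 for Acvr1, -0.35, -0.28 and -0.37 for Acvr2a, -0.99, -0.85 and -0.97 for Bmpr2, -1.63, -1.58 and -1.63 for Gdf9, -1.26, -1.03 and -1.29 for Smad1, and -0.42, -0.35 and -0.42 for Smad3. With the eWAT transcript of the highest RPKM, eWAT over BAT was -0.34 for Acvrl1, -0.98 for Bmpr2, -0.39 for Smad2, -0.78 for Smad4 and -1.89 for Tgfbr3, and iWAT over eWAT was 0.66 for Acvrl1. These transcripts are short parts of the genes, for example 294 bases for Bmpr2 and 594 for Tgfbr3. With the longest eWAT transcript, eWAT over BAT was -3.05 for Bmpr2, -2.02 for Smad1 and -4.12 for Tgfb1, and iWAT over eWAT was 4.86 for Tgfb1. Each of these longest transcripts is a single-exon row with few of the reads. They had 27 to 45 reads per sample for Bmpr2, 44 to 154 for Smad1 and 5 to 34 for Tgfb1. The rows used in the report had 714 to 1363, 454 to 955 and 680 to 3217. These changes of sign therefore describe the single-exon rows and not the whole genes. With shared rows only, Bmpr2 was -0.31 for iWAT over BAT and -0.23 for eWAT over BAT, because its shared row is the downstream single-exon row. A further 51 changes of sign lay between values that both missed the threshold. Of 91 fold changes recomputed, 63 were called. Over all alternatives other than leaving out 1 sample at a time, 36 values lost and 40 gained a call without a change of sign.

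The main limit is the different row in eWAT files. Counts of 1 transcript can understate eWAT and counts per length can overstate it, so members that pass only 1 of both fits, such as Tgfbr2, have no direction. The 14 members that were not tested had too few reads for a test, and whether depth or absence of expression gives this was not tested.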
